A study of Homo sapiens with 6 samples.

Results

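The RAS-MAPK genes described here are 9: the drivers NRAS and BRAF, and the feedback inhibitors DUSP4, DUSP5, DUSP6, SPRY1, SPRY2, SPRED1 and SPRED2. They were taken by gene symbol from the count table, in which all 9 were found once among 60671 genes. RNA was sequenced from MM.1S, a human multiple myeloma cell line, in 6 libraries: 3 from a CD38 knockout (CD38 KO) and 3 from wild-type (WT) cells. The CD38 KO cells are 1 clone made with CRISPR/Cas9, and the WT cells are the line that was edited. Cells of both groups carry GFP and a click beetle red luciferase from a lentivirus, and the labels give no drug or other treatment. Live cells were sorted before RNA extraction, CD38-negative cells from the clone and CD38-positive cells from WT. The clone and the knockout cannot be told apart in this design, and each p-value sets the gap between 1 clone and this WT line against the spread among replicates. The study's stated purpose was to characterise the knockout cells.

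RAS proteins are small GTPases that, when bound to GTP, recruit RAF kinases to the membrane, and a cascade follows in which RAF phosphorylates MEK and MEK phosphorylates ERK. ERK in turn induces genes that damp the cascade, among them nuclear and cytoplasmic phosphatases of the DUSP family and the membrane-associated Sprouty (SPRY) and Spred (SPRED) proteins. Activating mutations of RAS genes are common in multiple myeloma, and those of BRAF occur less often.

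RefSeq promoter windows (build GRCh38.p14) were matched by symbol for 7 of the 9 genes, 11 windows in all, each cut to 250 bases before the start and 30 after it. DUSP4 and DUSP5 are named only. The windows were searched on both strands for the AP-1 motif TGANTCA, the CRE core TGACGTC and the ETS core CCGGAAG, since AP-1, CREB and ETS factors act downstream of ERK. Of all 35116 RefSeq windows of this length, 7.35% held the AP-1 motif, 3.39% the CRE core and 9.94% the ETS core. The 3 windows of these genes that held a match are shown, with the match in capitals, and the matches did not overlap one another.
NRAS, chr1:114716742-114717021, minus strand: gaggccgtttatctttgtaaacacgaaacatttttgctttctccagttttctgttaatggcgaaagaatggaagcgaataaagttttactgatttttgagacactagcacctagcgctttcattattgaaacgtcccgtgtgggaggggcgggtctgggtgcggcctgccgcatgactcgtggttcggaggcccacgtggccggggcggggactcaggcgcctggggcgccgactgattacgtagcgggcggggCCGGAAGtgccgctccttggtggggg
SPRY1, second start, chr4:123398136-123398415, plus strand: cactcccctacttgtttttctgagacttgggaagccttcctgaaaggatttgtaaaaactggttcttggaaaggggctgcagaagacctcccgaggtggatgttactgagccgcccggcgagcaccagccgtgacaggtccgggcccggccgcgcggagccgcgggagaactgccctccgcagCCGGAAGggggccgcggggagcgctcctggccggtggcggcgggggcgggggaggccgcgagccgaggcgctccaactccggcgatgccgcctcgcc
SPRED2, second start, chr2:65366749-65367028, minus strand: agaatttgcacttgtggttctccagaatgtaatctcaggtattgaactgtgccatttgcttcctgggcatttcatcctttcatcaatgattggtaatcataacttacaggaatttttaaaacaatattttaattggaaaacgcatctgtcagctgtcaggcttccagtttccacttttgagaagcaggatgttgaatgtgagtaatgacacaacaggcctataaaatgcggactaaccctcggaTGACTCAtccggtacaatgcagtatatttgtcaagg
The ETS core lay at bases 5 to 11 after the NRAS start and at bases -67 to -61 of the second SPRY1 start. The AP-1 letters spanned the second SPRED2 start. The bases after the start were found in a GENCODE 29 transcript for 7 of the 11 windows, among them those printed for NRAS and SPRY1 but not the one for SPRED2. The windows of BRAF, DUSP6, SPRY2 and SPRED1 held none of these letters. A match describes the letters of the window and not a bound site.

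The libraries held 61515519 to 72335496 counts. Counts of CD38, the targeted gene, were 51, 80 and 48 in CD38 KO, against 3148, 2678 and 2545 in WT, in the direction of the labels and of the sort. The label calls the cells B lymphoblasts. The 8 plasma cell markers summed to 9088 to 9121 CPM in CD38 KO and 7139 to 7145 CPM in WT, where CPM is counts scaled to library size with TMM factors, which correct for library composition, while the B cell markers MS4A1, PAX5 and CD22 each stayed under 10 counts in every library. Of the plasma cell markers 5 were called higher and 2 lower in CD38 KO, with XBP1 and JCHAIN higher (log2 fold changes 0.75 and 1.05), SLAMF7 and MZB1 lower (-0.37 and -0.22) and SDC1 not called. Of the T cell markers, CD3D and CD3G stayed under 10 counts, and CD3E was higher in CD38 KO (log2 fold change 2.30). The 4 T cell markers summed to 5.24 to 5.65 CPM in CD38 KO and 1.26 to 1.53 CPM in WT. The sums were 0.759 to 1.24 CPM in CD38 KO and 0.670 to 1.12 CPM in WT for the 4 myeloid markers, 29.4 to 32.7 CPM in CD38 KO and 23.4 to 23.8 CPM in WT for the 4 erythroid markers, and 5.38 to 6.40 CPM in CD38 KO and 3.49 to 4.51 CPM in WT for the 4 stromal markers. A single gene made up most of the erythroid sum, and PDGFRB most of the stromal sum. The part of these cell types in the results was not tested. In bulk RNA a change in the share of cells that express a gene and a change in RNA per cell cannot be told apart.

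All 9 genes passed the filter on low counts, and 8 of them were called changed at an edgeR adjusted p under 0.05, where 44.4% of the 20120 tested genes were called. NRAS, BRAF, DUSP4, SPRY1, SPRY2 and SPRED2 rose in CD38 KO (6 of 9, against 22.8% of tested genes higher), and DUSP6 and SPRED1 fell (2 of 9, against 21.6% lower). Over all genes, 4592 were higher and 4342 lower, and with library size alone as the scaling 3632 were higher and 5570 lower. DUSP5 was not past the threshold. A 2-fold change was reached by NRAS, SPRY2 and SPRED1 (3 of 9, against 11.3% of tested genes). For 8 of the 9 genes no CD38 KO library lay within the WT range of CPM or the reverse, which held for 52.5% of tested genes. Taken without sign, the log2 fold changes of the 9 genes had a median of 0.48, and those of all tested genes a median of 0.32. The genes were picked as a named pathway with earlier results of these data known, so these counts describe them and do not set the pathway apart.

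**Figure D1:**
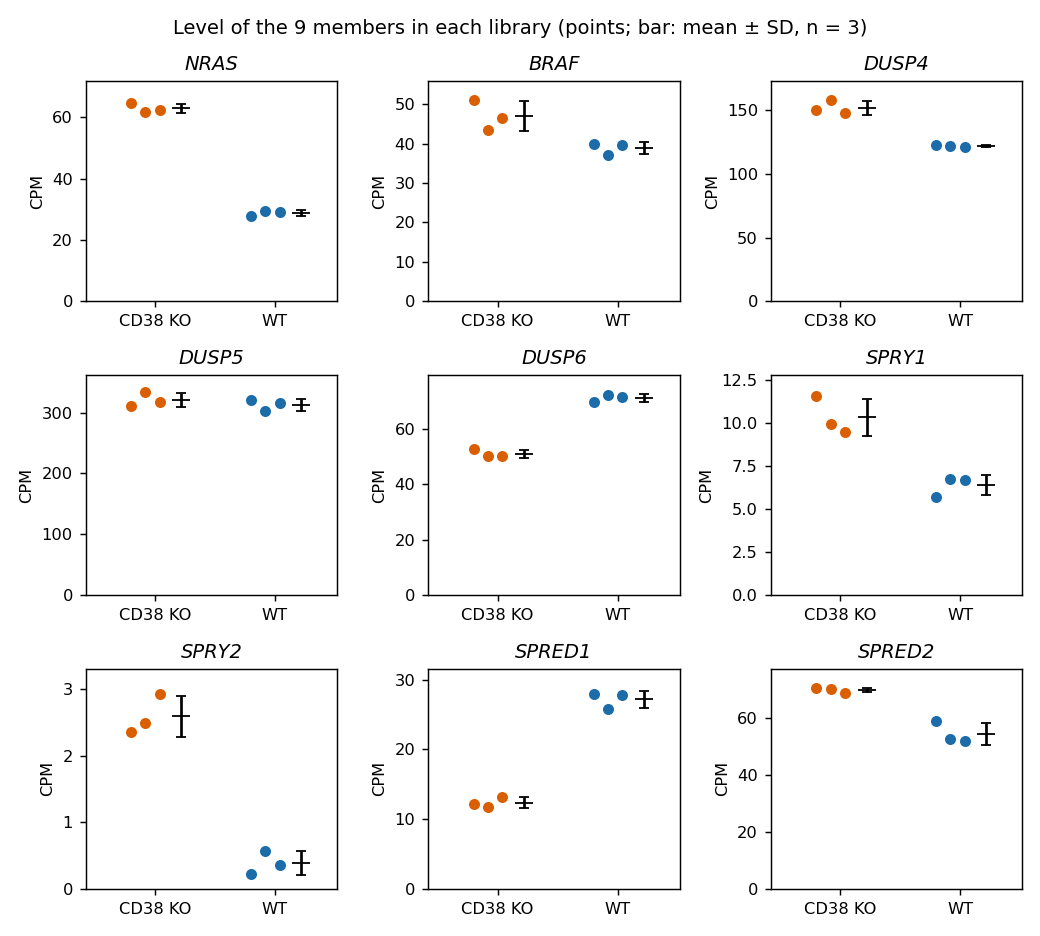
CPM of the 9 genes in each library, CD38 KO on the left of each panel and WT on the right, with points for the 3 libraries of a group and a bar for the mean and SD. The points of the groups do not overlap for 8 genes and overlap for DUSP5, whose CD38 KO libraries lie at 311 to 334 CPM and WT libraries at 302 to 321 CPM.

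NRAS, the RAS GTPase of this set, rose in the clone. The gene (ENSG00000213281) spans chromosome 1, 114704469 to 114716894 on the minus strand (GENCODE 29, build GRCh38). It stood at 64.7, 61.7 and 62.5 CPM in the CD38 KO libraries, against 27.8, 29.4 and 29.3 CPM in the WT libraries. Every CD38 KO library lay above every WT library, by a wide margin compared with the spread within a group. The log2 fold change was 1.13 ± 0.0554 (SE; adjusted p = 5.69e-13, edgeR), a 2.19-fold higher level. AMPD1, DENND2C and SIKE1, 3 tested genes near NRAS, had log2 fold changes of 0.61, 0.37 and 0.35, all called higher. Within 5 Mb of NRAS, 33 of 88 tested genes were higher and 14 lower, with a median log2 fold change of 0.16. The part of the surrounding region in the NRAS change was not tested.

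BRAF encodes the RAF kinase most often mutated in cancer, which phosphorylates MEK when RAS is active. BRAF (ENSG00000157764; chromosome 7, 140719327 to 140924928, minus strand) stood at 51.0, 43.5 and 46.5 CPM in CD38 KO, against 39.8, 37.0 and 39.6 CPM in WT. The groups did not overlap, but the lowest CD38 KO library lay close to the highest WT library. The log2 fold change was 0.28 ± 0.0636 (SE; adjusted p = 0.00117, edgeR), larger in size than that of 44.4% of tested genes. NDUFB2, a complex I gene on the opposite strand, shares 1239 exon bases with BRAF in GENCODE 29. NDUFB2 had 4992, 5166 and 5529 counts in CD38 KO and 6631, 6915 and 6245 in WT, and since the library kit does not mark strand, reads of the shared bases cannot be assigned to either gene.

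**Figure D2:**
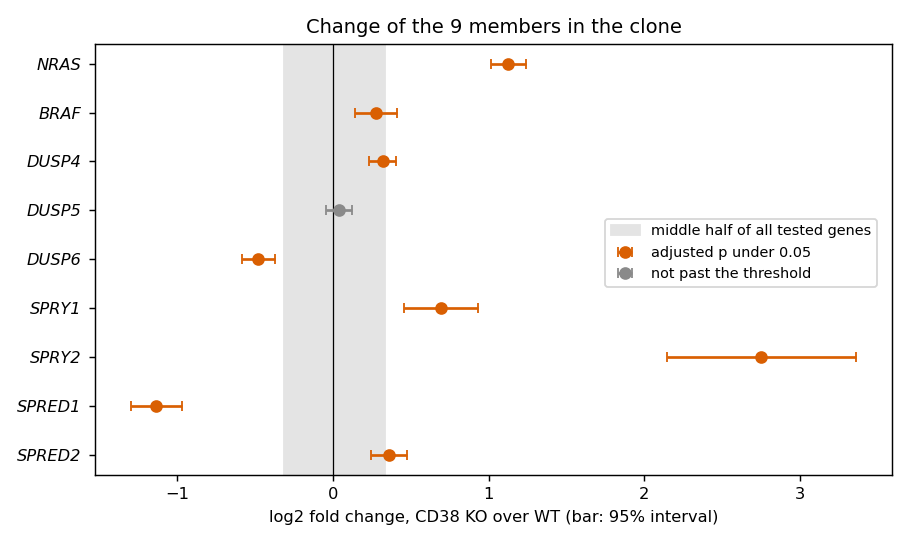
Log2 fold change of the 9 genes, CD38 KO over WT, with 95% intervals of the edgeR fit, over a grey band for the quartiles of all tested genes (-0.31 to 0.33). The whole intervals of SPRY2, NRAS and SPRY1 lie to the right of the band and those of SPRED1 and DUSP6 to its left, the point of SPRED2 lies just to the right at 0.36 with an interval that reaches into the band, and the interval of DUSP5 spans 0.

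The 3 dual-specificity phosphatases moved differently. DUSP4, DUSP5 and DUSP6 remove phosphate from both regulatory residues of MAP kinases. DUSP5 is nuclear and DUSP6 cytoplasmic, and both act mainly on ERK, while DUSP4 is nuclear and also acts on JNK. DUSP4 (ENSG00000120875; chromosome 8, 29333064 to 29350668, minus strand) stood at 150.2, 158 and 148 CPM in CD38 KO, against 123, 122 and 121 CPM in WT. It rose by 0.32 ± 0.0423 (SE) on the log2 scale (adjusted p = 2.33e-06, edgeR), with WT libraries that differed by less than 2 CPM from each other. DUSP6 (ENSG00000139318; chromosome 12, 89347232 to 89353271, minus strand) stood at 52.8, 50.1 and 50.4 CPM in CD38 KO, against 69.8, 72.4 and 71.6 CPM in WT. It fell by 0.48 on the log2 scale (SE 0.04997; adjusted p = 7.99e-08, edgeR), with the groups well apart. An antisense gene, AC024909.2, shares 1875 of the 4632 exon bases of DUSP6. It had 52, 46 and 41 counts in CD38 KO and 116, 67 and 88 in WT. DUSP6 had 3378, 2982 and 3123 counts in CD38 KO and 5167, 4794 and 4702 in WT. As for BRAF, reads of the shared bases cannot be assigned to either gene.

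DUSP5 (ENSG00000138166; chromosome 10, 110497838 to 110511544, plus strand) was the gene with the highest CPM of the 9 and the one that did not pass the test. Its libraries stood at 311, 334 and 317 CPM in CD38 KO, against 321, 302 and 315 CPM in WT, and the groups overlapped. The log2 fold change was 0.04 with a 95% interval of -0.05 to 0.12 (adjusted p = 0.504, edgeR), and with library size alone as the scaling its sign turned. Around DUSP6, 17 of 41 tested genes within 5 Mb were lower and 2 higher, with a median log2 fold change of -0.37. Its neighbour POC1B had a log2 fold change of -0.36. The part of this region in the DUSP6 change was not tested.

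Both Sprouty genes rose. Sprouty proteins are ERK-induced inhibitors that act between receptor tyrosine kinases and RAF. SPRY1 (ENSG00000164056; chromosome 4, 123396795 to 123403760, plus strand) stood at 11.6, 9.95 and 9.49 CPM in CD38 KO, against 5.70, 6.76 and 6.71 CPM in WT. The log2 fold change was 0.69 ± 0.115 (SE; adjusted p = 3.72e-05, edgeR), and no CD38 KO library fell within the WT range.

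SPRY2 (ENSG00000136158; chromosome 13, 80335976 to 80340951, minus strand) had the largest change of the 9 and the lowest level in CPM. It had 150, 148 and 181 counts in CD38 KO, against 16, 38 and 24 in WT, which is 2.35, 2.49 and 2.92 CPM in CD38 KO and 0.216, 0.574 and 0.365 CPM in WT. All CD38 KO libraries lay far above all WT libraries, but the WT libraries differed more than 2-fold among themselves. The log2 fold change was 2.75 ± 0.292 (SE; 95% interval 2.14 to 3.36; adjusted p = 1.10e-07, edgeR), larger in size than that of 97.9% of tested genes. Few genes were tested near SPRY2: of 22 within 5 Mb, 4 were higher and 4 lower, with a median log2 fold change of -0.01. On the whole of chromosome 13, 178 of 391 tested genes were higher and 20 lower, with a median of 0.39. The nearest tested gene on the lower-coordinate side, NDFIP2, an adaptor of NEDD4 ubiquitin ligases, lies 779901 bases away and had a log2 fold change of 0.83. RBM26-AS1, next on that side, was called lower (-0.58), and PTMAP5, the nearest on the other side, was not called (-0.19).

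The Spred genes moved in opposite directions. Spred proteins bind neurofibromin, a RAS GTPase-activating protein, and bring it to the membrane. SPRED1 (ENSG00000166068; chromosome 15, 38252326 to 38357249, plus strand) stood at 12.2, 11.7 and 13.2 CPM in CD38 KO, against 27.99, 25.8 and 27.8 CPM in WT. It fell by 1.14 on the log2 scale (SE 0.0787; adjusted p = 1.46e-10, edgeR), with the groups far apart. The WT level was 2.20 times that of CD38 KO. SPRED2 (ENSG00000198369; chromosome 2, 65310851 to 65432637, minus strand) stood at 70.6, 70.3 and 69.1 CPM in CD38 KO, against 59.1, 52.6 and 52.0 CPM in WT. It rose by 0.36 ± 0.0550 (SE) on the log2 scale (adjusted p = 1.47e-05, edgeR), with WT replicate 1 above the other WT libraries.

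SPRED1 lay in a stretch of chromosome 15 where most called genes were lower in the clone. Of 112 tested genes within 5 Mb, 65 were lower and 4 higher, with a median log2 fold change of -0.54, whereas the median over the 661 tested genes of the chromosome was -0.04. SPRED1 itself was lower than all but 13.4% of those neighbours. Of the 2 nearest tested genes on its lower-coordinate side, LINC01852 and MEIS2, both were called lower, with log2 fold changes of -0.99 and -1.14, although MEIS2 lies 1151027 bases away. Of the 2 nearest on the other side, FAM98B was called lower (-0.80) and AC109631.1 was not called (-0.04). For SPRED2 the region showed no such lean, with 15 higher and 15 lower of 92 tested genes. Within 5 Mb of BRAF, DUSP4, DUSP5 and SPRY1 the median log2 fold changes were -0.17, 0.05, -0.04 and 0.07. The part of the region in the SPRED1 change was not tested.

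**Figure D3:**
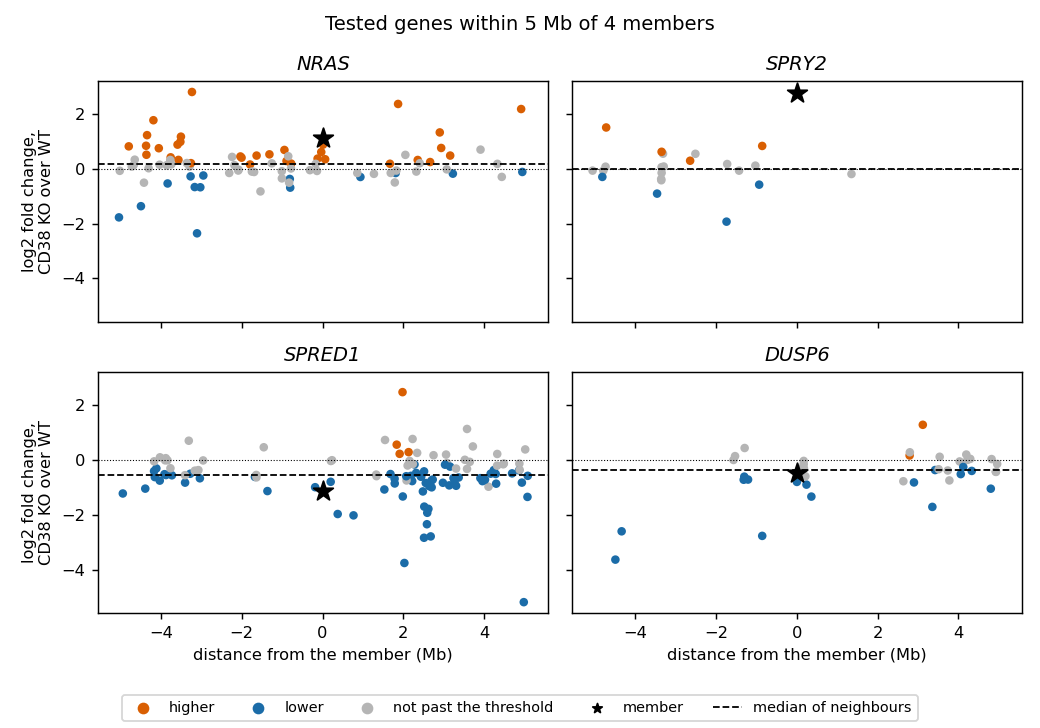
Log2 fold change, CD38 KO over WT, of every tested gene within 5 Mb of NRAS, SPRY2, SPRED1 and DUSP6, against its distance from that gene in Mb. The dashed median lies at -0.54 around SPRED1 and -0.37 around DUSP6, at 0.16 around NRAS and at -0.01 around SPRY2, which stands above every neighbour.

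Levels of different genes were compared as CPM per kilobase of the union of annotated exons. In CD38 KO the order from high to low was DUSP5, DUSP4, NRAS, SPRED2, DUSP6, SPRY1, BRAF, SPRED1 and SPRY2, and in WT it was DUSP5, DUSP4, DUSP6, SPRED2, NRAS, SPRED1, BRAF, SPRY1 and SPRY2. In CD38 KO no neighbours in the order had overlapping ranges, and in WT only BRAF and SPRY1 did. DUSP5 reached 123 ± 4.39 CPM per kilobase in CD38 KO and 119.6 ± 3.64 in WT, followed by DUSP4 at 20.9 ± 0.757 in CD38 KO and 16.8 ± 0.105 in WT (SD, n = 3). NRAS reached 14.2 ± 0.350 CPM per kilobase in CD38 KO and 6.48 ± 0.203 in WT, and stood above DUSP6 in CD38 KO and below it in WT. By coding length in place of the exon union, NRAS was above SPRED2 in both groups. SPRY2 was last in both groups, at 0.851 ± 0.0988 in CD38 KO and 0.127 ± 0.0591 in WT. The exon union of BRAF, 23432 bases, is long against its longest coding sequence of 2421 bases, which lowers its level on this scale. The exon union of DUSP6 includes the bases shared with AC024909.2, whose reads cannot be assigned, and its level and share per kilobase carry that limit.

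Shares within each family were taken from the same levels per kilobase. SPRED1 made up 9.94% ± 0.625 of the summed Spred level per kilobase in CD38 KO and 23.8% ± 1.13 in WT (SD, n = 3). The summed Spred level was 15.08 ± 0.0890 CPM per kilobase in CD38 KO and 13.9 ± 0.844 in WT. SPRY2 made up 24.7% ± 3.86 of the Sprouty level in CD38 KO and 7.10% ± 2.66 in WT. The summed Sprouty level was 3.46 ± 0.200 CPM per kilobase in CD38 KO and 1.74 ± 0.203 in WT. DUSP5 held 79.3% ± 0.481 of the level of the 3 phosphatases in CD38 KO and 78.8% ± 0.648 in WT, and DUSP6 held 7.14% ± 0.396 in CD38 KO and 10.1% ± 0.403 in WT. The DUSP5 difference had the other sign when lengths were taken as coding lengths. The summed phosphatase level was 155 ± 4.83 CPM per kilobase in CD38 KO and 152 ± 3.38 in WT. These shares were compared without a test.

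**Figure D4:**
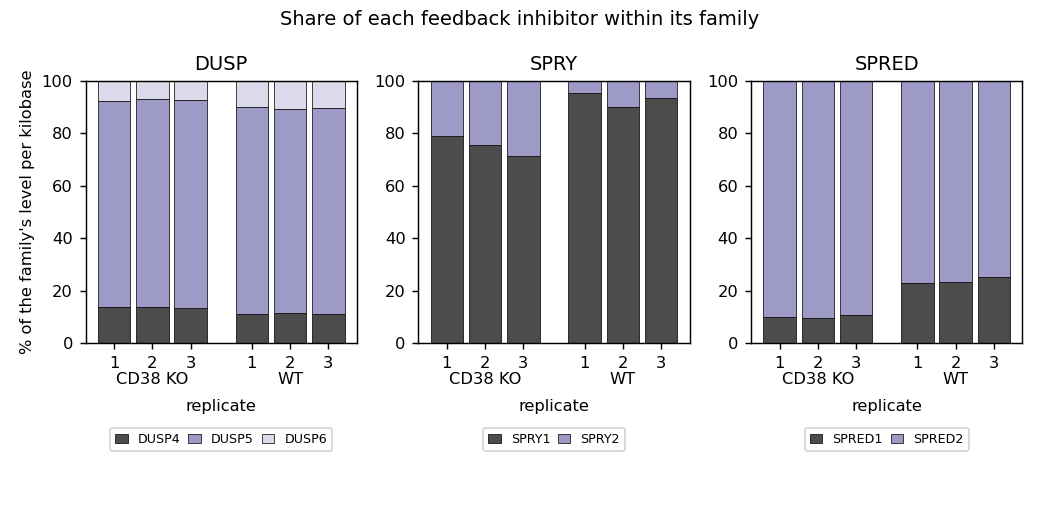
Share of each gene in the summed level per kilobase of its family, as stacked bars in percent for each library, with the CD38 KO replicates left of the WT replicates. SPRED1 holds on average 9.94% of the Spred bar in CD38 KO and 23.8% in WT, and SPRY2 24.7% of the Sprouty bar in CD38 KO and 7.10% in WT.

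The rest of the pathway was followed in 10 lists with 90 genes, of which 81 were tested. Of these 81, 26 rose and 27 fell in CD38 KO, with a median log2 fold change of 0.02. Of the tested list genes 65.4% were called, against 44.4% of all tested genes, a background not matched to the lists for level. The lists were chosen with earlier results of these data known, so this share describes them and does not set the pathway apart. With library size alone as the scaling, 18 were called higher and 32 lower. The RAS family then had 1 higher and 4 lower, the RAF, MEK and ERK kinases 0 higher and 3 lower, the scaffolds and RAF regulators 1 higher and 7 lower, the RAS GTPase-activating proteins 5 higher and 1 lower, the exchange factors and adaptors 2 higher and 2 lower, the other ERK-induced genes 3 higher and 3 lower, and the ERK effector kinases 1 higher and 4 lower.

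Among the other RAS family GTPases, 2 of 6 tested rose and 3 fell (median log2 fold change -0.30), and 1 rose with any one of the 6 libraries left out. HRAS, the close relative of NRAS, stood at 38.4 ± 2.65 CPM in CD38 KO and 52.2 ± 1.57 CPM in WT (SD, n = 3 each; log2 difference -0.44, adjusted p = 2.75e-06, edgeR). RAP1B and RAP1A, which regulate integrin adhesion, had log2 fold changes of -0.47 and -0.67. Of the 6 other RAF, MEK and ERK kinases, 1 rose and 2 fell (median -0.05), and 1 fell without CD38 KO replicate 3. MAP2K1 (MEK1) fell to 42.4 ± 0.790 CPM in CD38 KO, against 64.3 ± 1.28 CPM in WT (SD, n = 3 each; log2 difference -0.60, adjusted p = 3.79e-09, edgeR). MAP2K2 (MEK2) was higher by 0.15, a call lost with library size alone (adjusted p = 0.176, edgeR).

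Of 10 scaffolds and RAF regulators tested, 2 rose and 6 fell (median -0.18), and 1 rose without CD38 KO replicate 1. YWHAE, a 14-3-3 protein that binds phosphorylated RAF, rose by a log2 fold change of 0.43. SHOC2 and PPP1CA, which form a phosphatase complex that removes an inhibitory phosphate from RAF, had log2 fold changes of -0.44 and -0.35. Of 12 exchange factors and adaptors tested, 4 rose and 2 fell (median 0.08), and 2 rose without WT replicate 3. RASGRP3, a diacylglycerol-dependent exchange factor that loads RAS and RAP with GTP, fell to 136 ± 7.52 CPM in CD38 KO, against 258 ± 5.30 CPM in WT (SD, n = 3 each; log2 difference -0.92, adjusted p = 3.72e-13, edgeR). The ubiquitin ligase CBL, which turns over activated receptors, rose by 0.72 and the phosphatase PTPN11 (SHP2) by 0.33.

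Of 10 RAS GTPase-activating proteins, which switch RAS off, 6 rose and 1 fell (median 0.36). The number that rose was 5 without WT replicate 1 or with a filter at 1 CPM in 3 libraries, and 7 without CD38 KO replicate 2. RASA3 rose to 387 ± 12.4 CPM in CD38 KO, against 263 ± 8.57 CPM in WT (SD, n = 3 each; log2 difference 0.56, adjusted p = 2.46e-10, edgeR). RASAL2 rose by 0.88, and RASA1 was the one that fell, with a log2 fold change of -0.48. Of the 7 other MAP kinase phosphatases tested, 5 fell and 0 rose (median -0.46), in each of the 15 alternative fits as well. DUSP1, the most abundant of them by CPM, stood at 521 ± 8.30 CPM in CD38 KO and 613 ± 4.82 CPM in WT (SD, n = 3 each; log2 difference -0.23, adjusted p = 1.08e-05, edgeR). DUSP2 and DUSP3 had log2 fold changes of -0.95 and -0.72. Of the other Sprouty and Spred genes, SPRY4 rose to 1.24 ± 0.329 CPM in CD38 KO, against 0.399 ± 0.109 CPM in WT (SD, n = 3 each; log2 difference 1.63, adjusted p = 0.000247, edgeR). SPRY4 did not pass a filter at 1 CPM in 3 libraries and was not tested there. SPRY3 was not past the threshold (log2 fold change 0.09).

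Other genes known to be induced by ERK split in direction, with 4 of 12 tested higher, SPRY4 again among them, and 2 lower (median 0.39). The counts were 3 higher and 3 lower without CD38 KO replicate 2, and 4 higher and 3 lower without WT replicate 2. Without WT replicate 1 or CD38 KO replicate 3 they were 3 higher and 2 lower. CCND1, the G1 cyclin D1, fell to 8.06 ± 0.709 CPM in CD38 KO, against 29.5 ± 0.789 CPM in WT (SD, n = 3 each; log2 difference -1.87, adjusted p = 1.34e-13, edgeR). PHLDA1 had a log2 fold change of -1.30. The immediate early gene EGR1 rose to 20.9 ± 0.670 CPM in CD38 KO, against 10.5 ± 0.406 CPM in WT (SD, n = 3 each; log2 difference 0.99, adjusted p = 2.40e-09, edgeR). In the JNK and p38 arm 5 of 10 genes rose and 3 fell (median 0.12), and 2 fell without WT replicate 1, WT replicate 3 or CD38 KO replicate 3. MAP2K4, a kinase of JNK and p38, rose by 0.42, and the p38 kinases MAPK13 and MAPK12 had log2 fold changes of 0.33 and -0.35. Of the 7 ERK effector kinases 2 rose and 3 fell (median -0.08). Without WT replicate 2 the count was 1 higher and 2 lower, and 2 were lower in each other fit with a library left out except that without WT replicate 3. RPS6KA2 rose by 0.38, and RPS6KA5 and RPS6KA3 had log2 fold changes of -0.60 and -0.67.

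**Figure D5:**
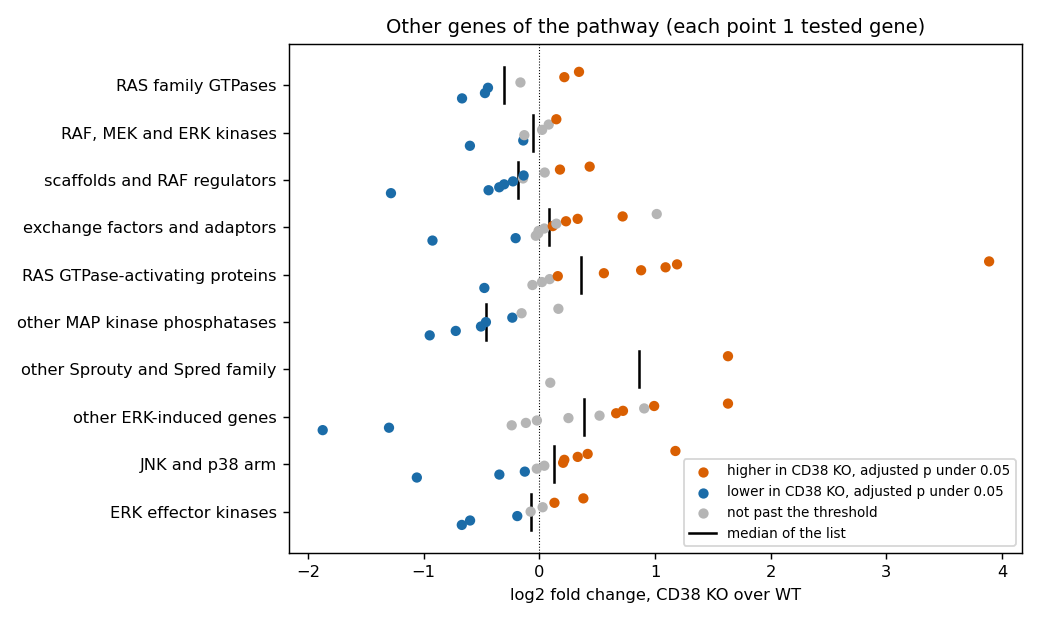
Log2 fold change, CD38 KO over WT, of each tested gene in the 10 lists of other pathway genes, coloured by call, with a vertical bar at the median of each list. The medians run from -0.46 for the other MAP kinase phosphatases to 0.86 for the 2 other Sprouty and Spred genes, and most lists hold genes on both sides of 0.

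The genes whose pattern over the 6 libraries was most like that of the 3 largest changes were sought among 9587 protein-coding genes of at least 5 CPM, by the Euclidean distance between mean-centred log2 CPM. For NRAS these were the membrane protein gene STOM (distance 0.0244), the mitochondrial gene MT-ND1 (0.0743) and the spindle assembly factor TPX2 (0.0759). STOM stood at 171 ± 3.49 CPM in CD38 KO and 79.1 ± 2.45 CPM in WT (SD, n = 3). For SPRY2 the 2 nearest were the tight junction gene CGN (0.683) and the flippase ATP8A2 (0.779), which lay much farther from it than STOM from NRAS. SPRY2, at a mean of 2.59 CPM in CD38 KO and 0.385 CPM in WT, lies under the 5 CPM asked of the candidates. Its WT libraries held 16, 38 and 24 counts, and the part of counting noise in its distances was not tested. For SPRED1, PTPRE (0.0925) and GNPTAB (0.0933) were 2 of the 3 nearest.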

How the data were processed

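The authors deposited raw read counts per gene, 1 column per library. STAR 2.7.9a, Partek and DESeq2 are named in the submitters' processing notes without a role; genome build, annotation and counting program were not given in the sources used here. Libraries were made from 10 ng of RNA, per the labels' protocols, with the SMARTer Ultra Low kit, which does not mark strand. Of 60871 lines, 200 repeated an identifier with the same counts and were dropped. CD38 KO was compared with WT over the whole table with edgeR 4.0.16 (R 4.3.3): TMM factors, filterByExpr, robust quasi-likelihood test, no covariate, Benjamini-Hochberg adjustment over 20120 genes, called at 0.05. The procedure was also run on simulated counts with few changed genes, which does not check the scaling where as many genes change as are called here. Alternatives used limma 3.58.1 (voom), DESeq2 1.42.0 and the settings given in the closing section.

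Positions, exon lengths and neighbours came from GENCODE 29 (GRCh38) by Ensembl identifier; it may not be the annotation of the counts. The genes and lists were chosen with earlier results of these data known. Named from each list were the 3 called genes with the smallest adjusted p. Some genes are not reported here. Replicates were biological replicates of each sorted line, per the labels, and each pair within a group differed beyond sampling noise. Chi-square per degree of freedom was 8.00 to 15.6 for pairs of CD38 KO libraries and 5.96 to 10.5 for pairs of WT libraries.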

Additional observations from a re-analysis of the deposited data

How the results depend on the processing

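The calls of the 9 genes were the same in all 15 alternative fits: RLE, upper-quartile and library-size scaling, DESeq2, limma-voom, protein-coding genes only, genes of 1 CPM or more in 3 libraries or with any count, a replicate block, and each library left out. The counts stayed at 6 higher and 2 lower in each. DUSP5 had a log2 fold change of -0.047 with library size alone, which moved the median of all genes by -0.08, and 0.0079 to 0.060 with a library left out. Leaving out each library gave 1.10 to 1.14 for NRAS, 0.22 to 0.33 for BRAF, 0.29 to 0.35 for DUSP4, -0.50 to -0.46 for DUSP6, 0.61 to 0.76 for SPRY1, 2.45 to 3.15 for SPRY2, -1.17 to -1.10 for SPRED1 and 0.32 to 0.42 for SPRED2. Over all genes, 3632 were higher and 5570 lower with library size alone, against 4592 and 4342 with TMM factors. With the replicate block NRAS had 1.13, BRAF 0.27, SPRY2 2.80 and SPRED1 -1.14, and no call of the 9 genes changed. The RAS family list had 1 gene higher in place of 2 with the block, DESeq2, upper-quartile factors or no filter. Deviations of same-numbered libraries correlated at -0.02 to 0.03, so the numbers were not taken as pairs.

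With the longest coding length in place of the exon union, chosen after seeing the data, DUSP5 held 61.6% of the phosphatase level in CD38 KO and 62.1% in WT, DUSP6 9.91% in CD38 KO and 14.3% in WT, SPRY2 20.3% of the Sprouty level in CD38 KO, and SPRED1 14.7% of the Spred level in CD38 KO and 32.7% in WT. The direction of the difference in these shares was the same for DUSP6, SPRY2 and SPRED1 and turned for DUSP5. By coding length 7 of the 9 genes kept their rank by level in each group, with SPRY1 and BRAF exchanged in CD38 KO and SPRED2 and NRAS in WT, and 7 kept it in WT without WT replicate 1. The RefSeq coding length was not used. Depth limits SPRY2 most, with as few as 16 counts in a WT library.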
